A study of Mus musculus with 40 samples.

Results

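The core circadian clock genes were described across 8 groups of C57BL/6J mice in RNA from the nucleus accumbens, a ventral striatal region that takes part in the response to cocaine. They were Arntl, Clock, Npas2, Per1, Per2, Per3, Cry1, Cry2, Nr1d1 and Dbp, chosen by symbol, and made up 10 of the 23322 genes in the deposited table. All 10 were measured and all 10 passed the filter for low values, which left 15196 genes for testing. The study gave cocaine or saline to ovariectomized and intact mice, and RNA was taken from left and right punches after withdrawal.

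The 8 groups held 5 mice each, which gave 40 libraries. Ovariectomized females with estradiol and cocaine, ovariectomized females with estradiol and saline, ovariectomized females with placebo and cocaine, and ovariectomized females with placebo and saline carried animal numbers from 121 to 140. Intact females with cocaine, intact females with saline, intact males with cocaine and intact males with saline carried numbers from 61 to 80. Cocaine was given at 10 mg/kg/d on days 1 and 7 and at 20 mg/kg/d from day 2 to day 6, and all mice had been handled for 3 days beforehand. The estradiol dose and route, the estrous stage of intact females, the age of the mice, the length of withdrawal and the time of day at which tissue was taken are not given in the sources used here. Every ovariectomized mouse came from the higher range of animal numbers, so surgery and the range of numbers cannot be told apart.

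In mammals the clock is a loop of transcription. The proteins of Arntl with Clock or Npas2 form a heterodimer that binds E-box sequences and activates the Per and Cry genes, whose proteins then repress it. Nr1d1 encodes a nuclear receptor (REV-ERB alpha) that represses Arntl, and Dbp encodes a transcription factor that is itself driven by the Arntl and Clock proteins and binds D-box sequences in clock genes. Messenger RNA of most of these genes rises and falls over the day, also in striatum, where Npas2 is abundant and clock genes have been linked to the response to drugs of abuse.

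The promoters of Per3, Cry1 and Dbp are shown because these were the members whose level differed between ovariectomized and intact females after the libraries were set on a common median, and the promoter of Per1 because it held an E-box. Each window runs from 250 bases before to 50 bases from the start of the gene, read 5′ to 3′ on the strand of the gene, from RefSeq on GRCm38.p6. Of the 10 members, 9 had an entry. Capitals mark the E-box CACGTG and the D-box TTATGTAA, both searched on both strands.
Per3, chr4:151044616-151044915, minus strand: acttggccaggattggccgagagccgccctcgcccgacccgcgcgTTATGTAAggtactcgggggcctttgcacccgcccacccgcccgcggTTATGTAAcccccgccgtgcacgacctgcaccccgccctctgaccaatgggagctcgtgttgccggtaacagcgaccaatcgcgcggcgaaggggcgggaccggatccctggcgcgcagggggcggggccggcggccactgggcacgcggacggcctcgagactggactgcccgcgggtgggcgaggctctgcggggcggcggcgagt
Cry1, chr10:85185005-85185304, minus strand: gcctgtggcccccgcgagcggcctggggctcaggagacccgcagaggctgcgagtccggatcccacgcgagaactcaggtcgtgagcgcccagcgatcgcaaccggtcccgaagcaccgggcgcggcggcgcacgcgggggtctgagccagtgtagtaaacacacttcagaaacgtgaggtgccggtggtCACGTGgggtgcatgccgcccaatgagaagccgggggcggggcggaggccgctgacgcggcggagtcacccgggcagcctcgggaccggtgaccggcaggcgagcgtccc
Dbp, chr7:45704997-45705296, plus strand: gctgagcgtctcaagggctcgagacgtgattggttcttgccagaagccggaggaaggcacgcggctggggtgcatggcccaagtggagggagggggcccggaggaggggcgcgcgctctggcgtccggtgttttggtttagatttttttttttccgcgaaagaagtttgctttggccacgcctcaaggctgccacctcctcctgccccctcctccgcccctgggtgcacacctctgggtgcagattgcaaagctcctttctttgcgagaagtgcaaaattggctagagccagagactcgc
Per1, chr11:69098699-69098998, plus strand: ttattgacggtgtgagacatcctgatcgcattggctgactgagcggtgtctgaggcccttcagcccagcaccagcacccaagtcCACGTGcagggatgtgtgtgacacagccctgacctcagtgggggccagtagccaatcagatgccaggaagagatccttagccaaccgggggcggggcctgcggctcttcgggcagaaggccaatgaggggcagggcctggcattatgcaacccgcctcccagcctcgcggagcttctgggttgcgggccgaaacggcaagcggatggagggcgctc
The Per3 window held TTATGTAA at 205 and at 158 bases before the start, a motif found in 0.938% of all 32851 promoter windows of this length. The Cry1 window and 1 of the 2 Per1 windows held CACGTG, at 60 and at 166 bases before the start, and 7.15% of all windows held it; the 9 members had 13 windows in all. Neither motif was found in the Dbp window. The core AGGTCA of the element bound by Nr1d1 was found in 1 window each of Arntl, Clock and Per1, 3 of the 13, against 16.3% of all windows, and the cyclic AMP response element TGACGTCA and the D-box TTACGTAA were found in none of the members' windows, against 1.79% and 0.119% of all windows.

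The libraries were not alike in composition, and 1 went against its label. Values were taken as TPM, shares scaled to the same total in every library. Differences are given on the log2(TPM + 0.5) scale. In 4 libraries (mice 126 and 134 with estradiol and cocaine, mouse 137 with placebo and saline, and male cocaine 67) the median gene stood at 2.66 to 3.19 on that scale, against 3.77 to 4.57 in the other 36. The same 4 had 19.5% to 31.6% of their TPM in cytosolic ribosomal protein genes, against 7.60% to 17.9% in the others. The library labelled male cocaine 69 had 237 TPM of Xist, the X-inactivation RNA of female cells, and 0.318 TPM of the Y-linked gene Ddx3y, against 0.138 to 8.02 TPM of Xist and 13.5 to 53.4 TPM of Ddx3y in the 9 other male libraries. Its title says male cocaine, but its deposited column is coded 69-MS, the code of male saline mice. Its treatment label is therefore in conflict as well, and it was kept with male cocaine. Because the level of the median gene differed among libraries, members are given both as deposited and relative to the median gene, which means the log2 value minus the median over all tested genes of that library. Striatal projection neuron markers were present in every library: Ppp1r1b, which encodes DARPP-32, stood at 678 to 2328 TPM in ovariectomized females, 768 to 1495 TPM in intact females and 910 to 1791 TPM in males. Another such marker, Drd2, fell to 26.5 TPM in mouse 126. The sum of 8 cortical excitatory neuron markers varied widely, from 5.62 to 759 TPM in ovariectomized females and 19.0 to 761 TPM in intact females. In males it ran from 72.7 to 717 TPM. It also varied inside single groups, as from 39.5 to 761 TPM in intact females with cocaine. The part of this in the spread of the clock genes was not tested. Six6, a marker of the suprachiasmatic nucleus, was listed at 0 in 13 of 20 ovariectomized, 7 of 10 intact female and 7 of 10 male libraries and did not pass 0.564 TPM. Of the 10 hypothalamic and suprachiasmatic markers 7 passed the filter, among them Oxt at up to 342 TPM, Avp at up to 47.0 TPM, Vip at up to 39.0 TPM and Six3 at 10.3 to 46.4 TPM.

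All 10 members were well above the filter in the nucleus accumbens. Dbp had the highest mean over the 40 libraries at 80.9 TPM, followed by Nr1d1 at 76.6 TPM and Cry2 at 68.9 TPM. The remaining means were 39.8 TPM for Per1, 31.4 TPM for Npas2, 26.2 TPM for Clock, 26.0 TPM for Cry1, 23.7 TPM for Arntl, 20.1 TPM for Per3 and 16.7 TPM for Per2. Dbp ranked within the top 15.0% of the tested genes by mean level, and Per2, a repressor of the loop, at 52.8% from the top. Order between genes rests on TPM values whose length scaling is not stated.

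Within groups the members differed in how steady they were from mouse to mouse. Nr1d1 had the smallest standard deviation among mice of a group, 0.19 on the log2 scale relative to the median gene, and Cry2 the next at 0.21. Arntl and Cry1 followed, both at 0.24. At the other end stood Per1 at 0.36, Clock at 0.35 and Per2 at 0.32. The median over all genes of at least 5 TPM was 0.30. On this relative scale the 2 most abundant members after Dbp were thus also the 2 that varied least. The activator Clock and the repressor Per1 varied most on it. As deposited the order was another, with Dbp lowest at 0.39 and Cry1 next at 0.43. Clock was highest there at 0.70, followed by Per3 at 0.61.

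The group with the lowest mean was ovariectomized estradiol cocaine for 9 of the 10 members. The activator Clock averaged 14.9 ± 9.8 TPM there, 29.8 ± 9.7 TPM with estradiol and saline, 22.0 ± 7.3 TPM with placebo and cocaine, 21.1 ± 8.9 TPM with placebo and saline, 34.6 ± 5.9 TPM in intact females with cocaine, 31.4 ± 10.5 TPM in intact females with saline, 30.9 ± 12.8 TPM in males with cocaine and 24.8 ± 9.1 TPM in males with saline (SD, n = 5 each, as for all group means here). Dbp was the exception: its lowest mean was 68.2 ± 11.4 TPM in intact females with cocaine and its highest 90.3 ± 10.2 TPM in males with saline. Neighbouring groups in these orders overlapped, and in the test of any difference among the 8 groups limma called 0 of the 10 members at a Benjamini-Hochberg adjusted p under 0.05, against 0.224% of all genes. The count was also 0 relative to the median gene, defined above, against 1.10% of all genes. At an unadjusted p under 0.05 that test as deposited picked 3 members and 23.9% of all genes. Without male cocaine 67 the same test called 5 members, Arntl, Clock, Per2, Per3 and Cry2, and 25.7% of all genes.

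The group means of the other activators spanned 15.7 to 30.0 TPM for Arntl, lowest in ovariectomized estradiol cocaine and highest in intact females with cocaine, and 20.3 to 38.8 TPM for Npas2, highest in males with saline. Among the repressors, the period genes spanned 29.7 to 50.2 TPM for Per1, 10.8 to 22.2 TPM for Per2 and 12.2 to 26.5 TPM for Per3, each highest in males with cocaine. The cryptochromes spanned 21.3 to 27.5 TPM for Cry1 and 46.2 to 80.9 TPM for Cry2, and Nr1d1 spanned 56.2 to 89.3 TPM. Apart from ovariectomized estradiol cocaine, the group means of Cry1 lay between 25.9 and 27.5 TPM.

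**Figure D1:**
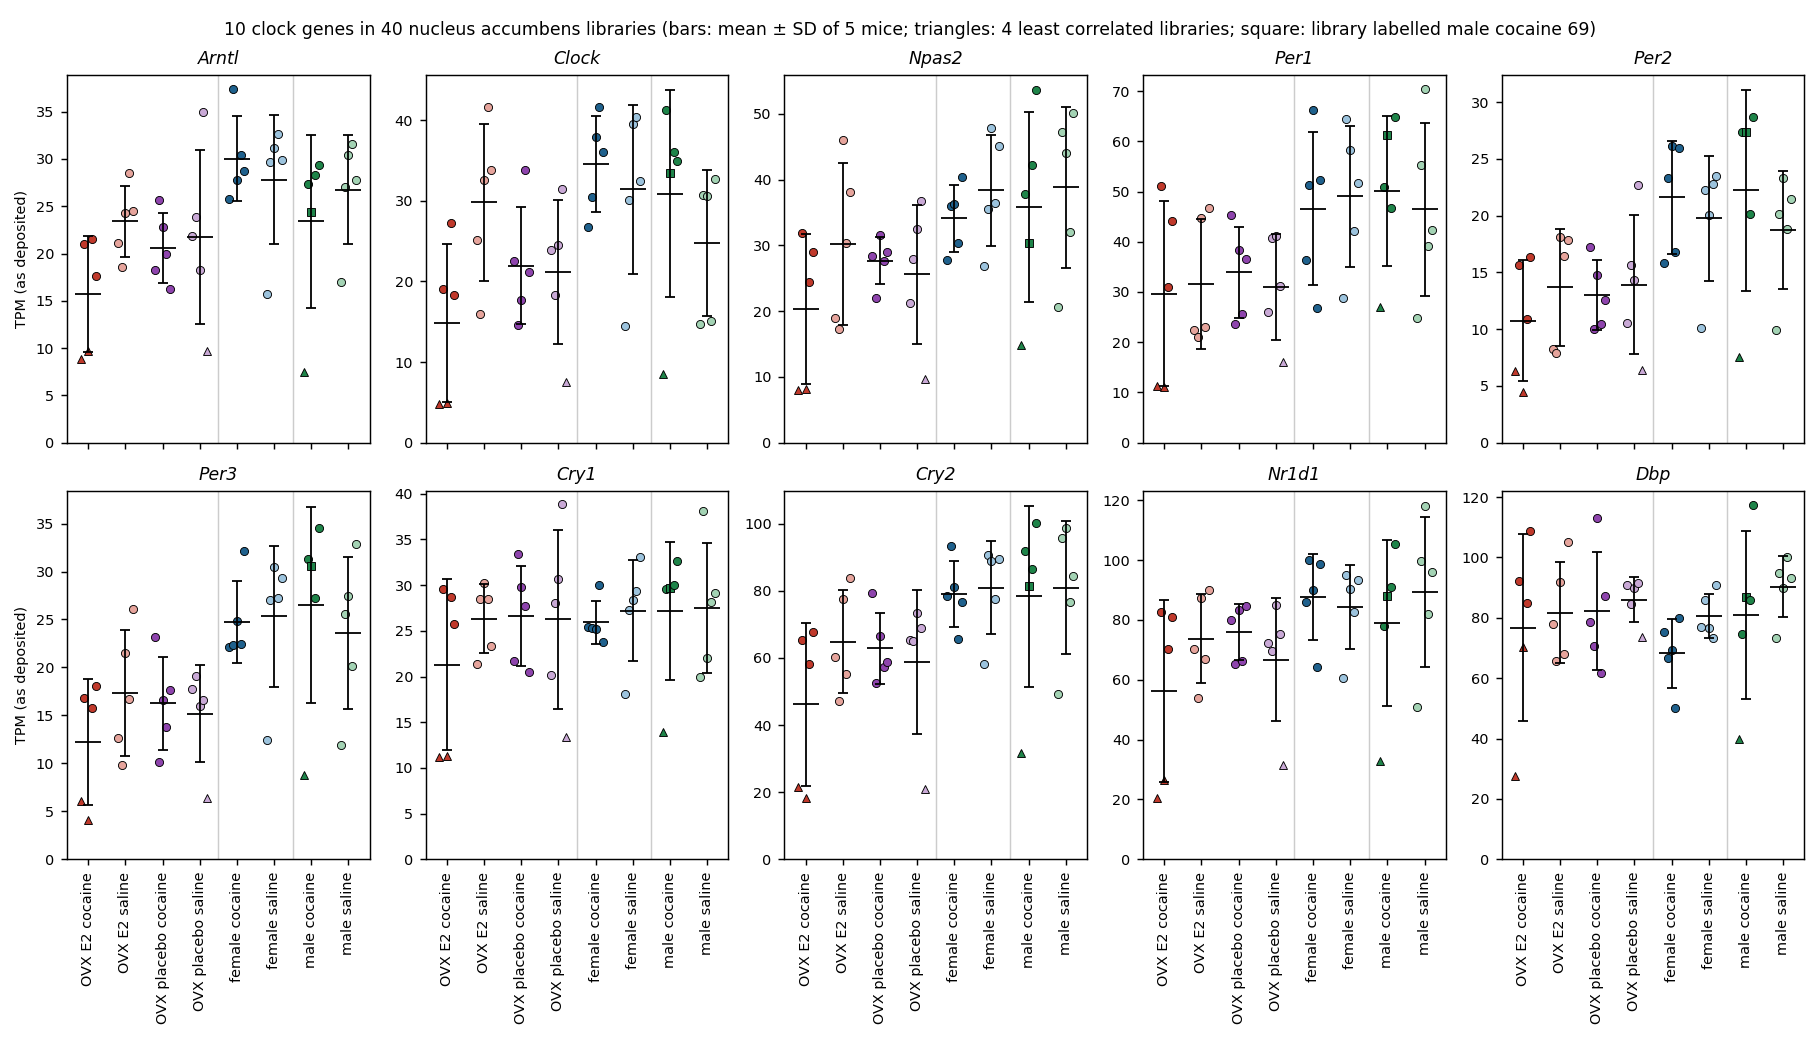
TPM of each clock gene in each mouse, with 1 panel per gene, groups in the same order from left to right as in the text, and group means with SD (n = 5 each); triangles mark the 4 least correlated libraries and squares the library labelled male cocaine 69. The triangles lie at or near the bottom of their groups for most genes, and Dbp has its lowest group mean, 68.2 TPM, in intact females with cocaine.

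None of the 10 clock genes passed the test for cocaine against saline in any of the 4 conditions. No gene in the table did either (limma, Benjamini-Hochberg adjusted p under 0.05, 0% of 15196 genes), while 167 genes (1.10%) had an unadjusted p under 0.05 in the mean over the 4 conditions, none of them a member. Over that mean the members' differences lay between -0.20 for Arntl and -0.02 for Per1 on the log2 scale, and their 95% confidence intervals together reached from -0.59 to 0.35. On the relative scale these intervals reached from -0.28 to 0.32.

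In intact females the members lay between -0.25 for Dbp and 0.20 for Clock after cocaine, with 5 above and 5 below 0. The 5 female cocaine mice had 50.0, 66.6, 69.3, 75.2 and 79.9 TPM of Dbp, against 73.4, 76.7, 76.9, 85.9 and 90.7 TPM in the 5 female saline mice. The lowest cocaine values lay under every saline value, but the groups overlapped, and the difference in Dbp was -0.25 on the log2 scale. In males the members lay between -0.30 for Arntl and 0.22 for Clock, with 4 above 0. In ovariectomized mice with placebo they lay between -0.09 for Dbp and 0.25 for Nr1d1, with 8 above 0 as deposited and 3 relative to the median gene. Together the confidence intervals of the members reached from -0.88 to 1.05 in intact females and from -0.92 to 1.07 in males. With placebo they reached from -0.73 to 0.98. The lower and upper ends of each range came from different genes. The ranges therefore do not give the size of difference that could be told from 0 for a single gene. The interval of each member included 0 in these conditions, given the spread between mice. At an unadjusted p under 0.05 limma picked no member in these 3 conditions, against 0.954%, 1.02% and 0.823% of all genes in intact females, males and placebo mice. The count in males was also 0 by limma without the library labelled male cocaine 69.

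With estradiol, all 10 members were below 0 after cocaine, from -1.22 for Clock to -0.20 for Dbp, beside a median of -0.56 over all genes. On the relative scale 5 lay above and 5 below 0. Clock had 4.78, 4.93, 18.4, 19.1 and 27.2 TPM in the estradiol cocaine mice, against 15.9, 25.2, 32.6, 33.8 and 41.6 TPM in the estradiol saline mice. The 2 cocaine values near 5 TPM were mice 126 and 134, both among the 4 least correlated libraries, and the other 3 overlapped the saline mice. The Clock difference of -1.22 ± 0.42 (SE) had an unadjusted p of 0.00607 and a Benjamini-Hochberg adjusted p of 0.0946 in limma, and 41.7% of all genes had an unadjusted p under 0.05 in this comparison. It was -0.61 ± 0.21 relative to the median gene, with an adjusted p of 0.212 in limma, and -0.30 with the ribosomal protein share of each library as a covariate (adjusted p = 1.00 in limma). Leaving out 1 library at a time moved it between -1.51 and -0.91, and it was called without estradiol cocaine 128, 136 or 140 or without male cocaine 67, with adjusted p-values from 0.0248 to 0.0499 in limma. In those 4 fits limma called 1 or 2 members and 16.4% to 40.2% of all genes, against 0% with all libraries.

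No member passed the test for a difference in the response to cocaine between estradiol and placebo or between females and males. The estradiol response minus the placebo response was -1.35 ± 0.59 for Clock (limma, adjusted p = 0.156) and lay between that and -0.11 for the others. For Clock it was -0.57 relative to the median gene and -0.17 with the ribosomal protein share of each library as a covariate, and 6 of the 10 members lay above 0 relative to the median gene. Dbp had a difference of 0.67 between these responses relative to the median gene (limma, adjusted p = 0.278). The female response minus the male response lay between -0.22 for Per1 and 0.44 for Arntl, with intervals from -1.26 to 1.32. In both tests limma called 0 of the 10 members and 0% of all genes; at an unadjusted p under 0.05 the estradiol and placebo responses gave 1 member and 31.3% of all genes, and the female and male responses 0 members and 0.665% of all genes.

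**Figure D2:**
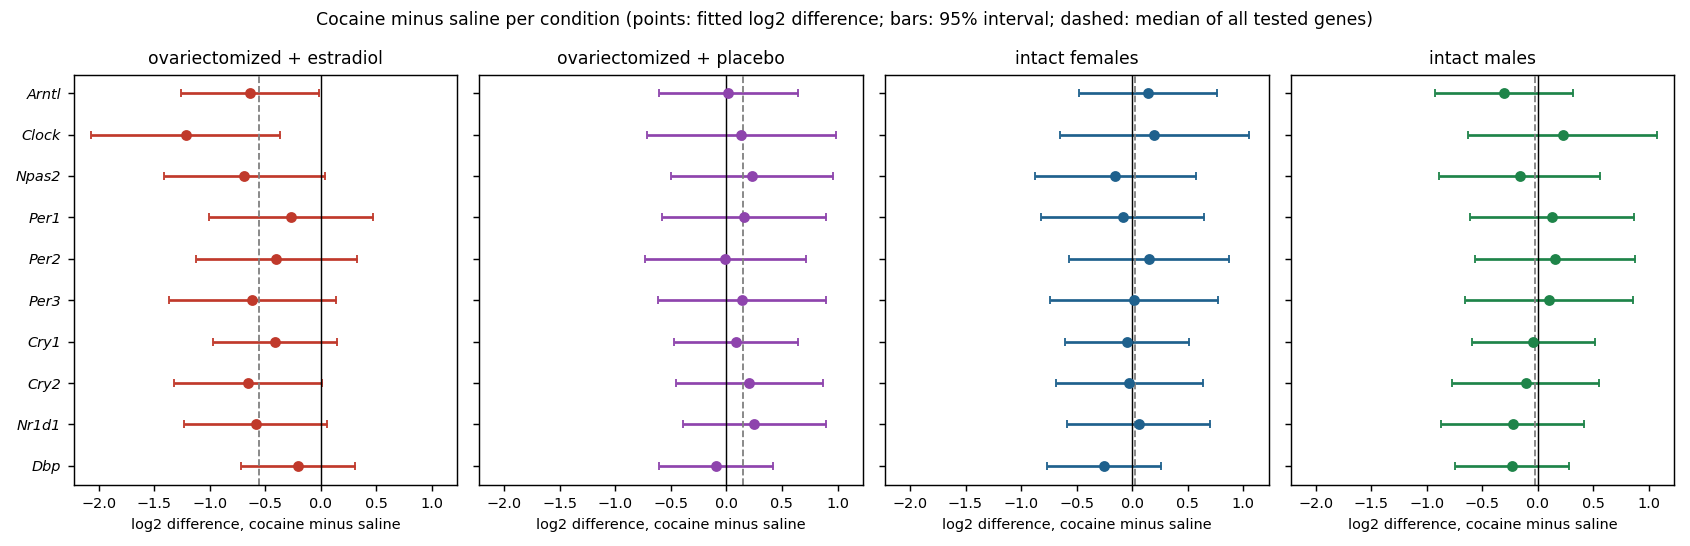
Log2 difference in TPM between cocaine and saline for each clock gene in each of the 4 conditions, with 95% confidence intervals from limma. As deposited all 10 lie below 0 with estradiol, from -1.22 for Clock to -0.20 for Dbp, where 5 lie above 0 relative to the median gene, and no difference passed the adjusted threshold of 0.05.

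Sex and estradiol were compared in the same fit. Between females and males given saline the members lay between -0.16 for Dbp and 0.34 for Clock, and between females and males given cocaine between -0.18 for Dbp and 0.48 for Arntl. In each of these comparisons limma called 0 of the 10 members and 0.0329% of all genes, which is 5 genes. No member had an unadjusted p under 0.05 in either, against 1.41% of all genes with saline and 1.36% with cocaine. Relative to the median gene the calls were again 0 members, against 0.0395% of all genes with saline and 0.0329% with cocaine. Dbp was at -0.39 in females with cocaine against males with cocaine relative to the median gene, with an unadjusted p of 0.049 and an adjusted p of 1.00 in limma. The library labelled male cocaine 69 is counted as male there; without it the difference was -0.41, with an unadjusted p of 0.0548 in limma. Of the 10, the female minus male difference was therefore lowest for the output gene Dbp in both sex comparisons, on both scales. It did not pass the threshold in any of these.

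Estradiol against placebo, taken as the mean over saline and cocaine, gave members between -0.22 for Nr1d1 and -0.12 for Clock, with intervals from -0.72 to 0.48. With saline alone they lay between -0.09 for Dbp and 0.55 for Clock, and with cocaine alone between -0.80 for Clock and -0.20 for Dbp. As deposited Clock was thus at opposite ends of the 10; relative to the median gene it stood at 0.28 with saline and -0.29 with cocaine, and with the ribosomal covariate at 0.19 and 0.018. For estradiol against placebo limma called 0 members and 0% of all genes with saline, with cocaine and over both; no member had an unadjusted p under 0.05, while 377 genes (2.48%) did with saline, 2385 (15.7%) with cocaine and 119 (0.783%) over both.

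Between ovariectomized and intact females, clock genes differed on both scales. As deposited, 7 of the 10 were lower in the 20 ovariectomized females than in the 10 intact females (limma, Benjamini-Hochberg adjusted p under 0.05), a comparison in which 35.7% of all genes were called and 32.1% were called lower. They were the activators Arntl, Clock and Npas2 and the repressors Per1, Per2, Per3 and Cry2; Nr1d1, Cry1 and Dbp were not called. The median difference was -0.57 over the 10 members and -0.37 over all genes. Relative to the median gene 3 members were called, Dbp and Cry1 higher and Per3 lower, against 30.2% of all genes, 18.5% higher and 11.7% lower, so that the count of members called was at the share of all genes. In bulk tissue, fewer cells that express a gene and less of its RNA per cell cannot be told apart.

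Per3, a period gene and repressor of the loop, had the largest difference as deposited. Its level was 4.12 TPM at the lowest, 16.6 TPM at the median and 26.1 TPM at the highest in ovariectomized females, against 12.5, 25.9 and 32.1 TPM in intact females. Of the 20 ovariectomized mice, 19 lay below the median of intact females, and the ranges overlapped. The difference was -0.78 ± 0.23 (SE; limma, adjusted p = 0.0147), with a 95% interval from -1.24 to -0.31. Relative to the median gene Per3 averaged -0.13 ± 0.32 in ovariectomized females and 0.22 ± 0.22 in intact females (SD, n = 20 and 10), and 18 of 20 ovariectomized mice lay below the intact median. That difference was -0.35 ± 0.11 with an adjusted p of 0.0244 in limma. Males stood at 0.32 ± 0.24 on the same relative scale (SD, n = 10), near the intact females. The call is narrow: over leaving out 1 library at a time the adjusted p in limma ran from 0.00887 to 0.054, and it lay above 0.05 without female saline 66 (-0.33) and without female cocaine 80 (-0.31).

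Dbp, an output gene of the loop, went the other way relative to the median gene. As deposited its level was 27.5 TPM at the lowest, 84.8 TPM at the median and 113 TPM at the highest in ovariectomized females, against 50.0, 75.9 and 90.7 TPM in intact females, and the difference of 0.10 ± 0.16 was not called (limma, adjusted p = 0.603). On the relative scale Dbp averaged 2.32 ± 0.37 in ovariectomized females and 1.80 ± 0.31 in intact females (SD, n = 20 and 10), with 2.14 ± 0.24 in males (n = 10). Of the 20 ovariectomized mice, 19 lay above the intact female median of 1.75. The difference was 0.53 ± 0.12 (limma, adjusted p = 0.00493), with an interval from 0.29 to 0.77. Males lay between the ovariectomized and the intact females.

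The repressor Cry1 hardly differed as deposited. It stood at 11.2 TPM at the lowest, 27.9 TPM at the median and 38.9 TPM at the highest in ovariectomized females, against 18.1, 26.3 and 33.1 TPM in intact females, and the difference was -0.13 ± 0.17 (limma, adjusted p = 0.522). On the relative scale it averaged 0.62 ± 0.26 in ovariectomized females and 0.33 ± 0.14 in intact females (SD, n = 20 and 10), and 16 of 20 ovariectomized mice lay above the intact median. That difference was 0.30 ± 0.09 with an adjusted p of 0.0223 in limma. Males stood at 0.51 ± 0.25 on the relative scale (SD, n = 10), between the ovariectomized and the intact females. The direction for Cry1 therefore depends on the scale, below 0 as deposited and above 0 relative to the median gene.

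Among the remaining members, as deposited, the difference was -0.72 ± 0.22 for Per2, -0.71 ± 0.26 for Clock, -0.65 ± 0.22 for Per1, -0.58 ± 0.22 for Npas2, -0.55 ± 0.20 for Cry2 and -0.54 ± 0.19 for Arntl (SE), with adjusted p-values in limma from 0.0163 to 0.0392. On the relative scale limma called none of these 6: Per2 had -0.30 ± 0.12 (adjusted p = 0.0609 in limma) and Clock -0.28 ± 0.13 (adjusted p = 0.0949 in limma), and the other 4 lay between -0.22 and -0.11. Nr1d1 had -0.41 ± 0.20 as deposited (limma, adjusted p = 0.087) and 0.02 relative to the median gene. Nr1d1 therefore stayed close to the median gene of its libraries.

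**Figure D3:**
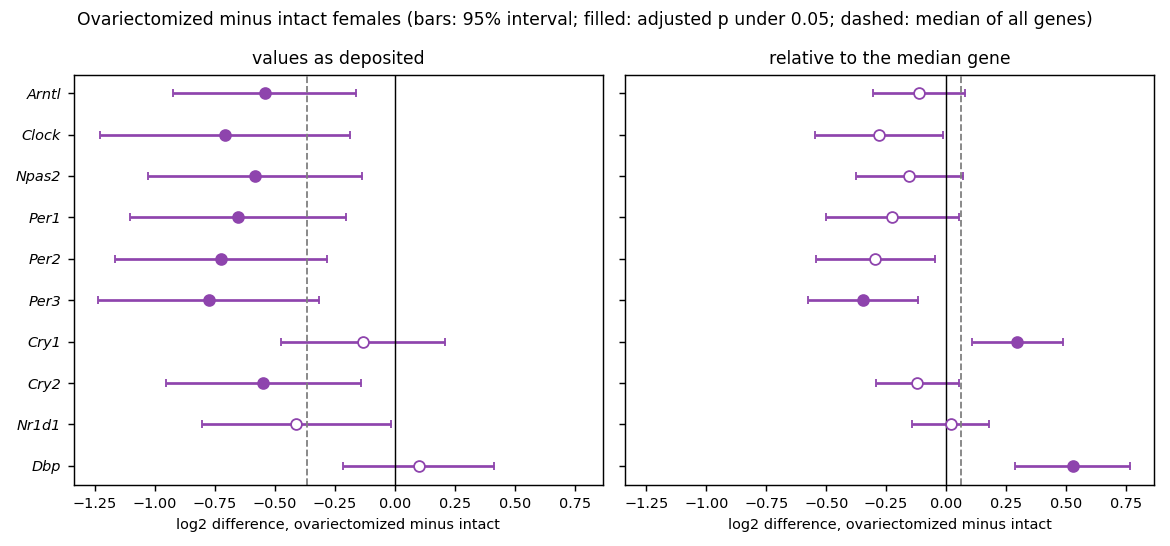
Log2 difference between ovariectomized (n = 20) and intact (n = 10) females for each clock gene, as deposited and relative to the median gene of each library, with 95% confidence intervals from limma. As deposited 9 of the 10 lie below 0; relative to the median gene Dbp (0.53) and Cry1 (0.30) lie above 0 and Per3 (-0.35) below.

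**Figure D4:**
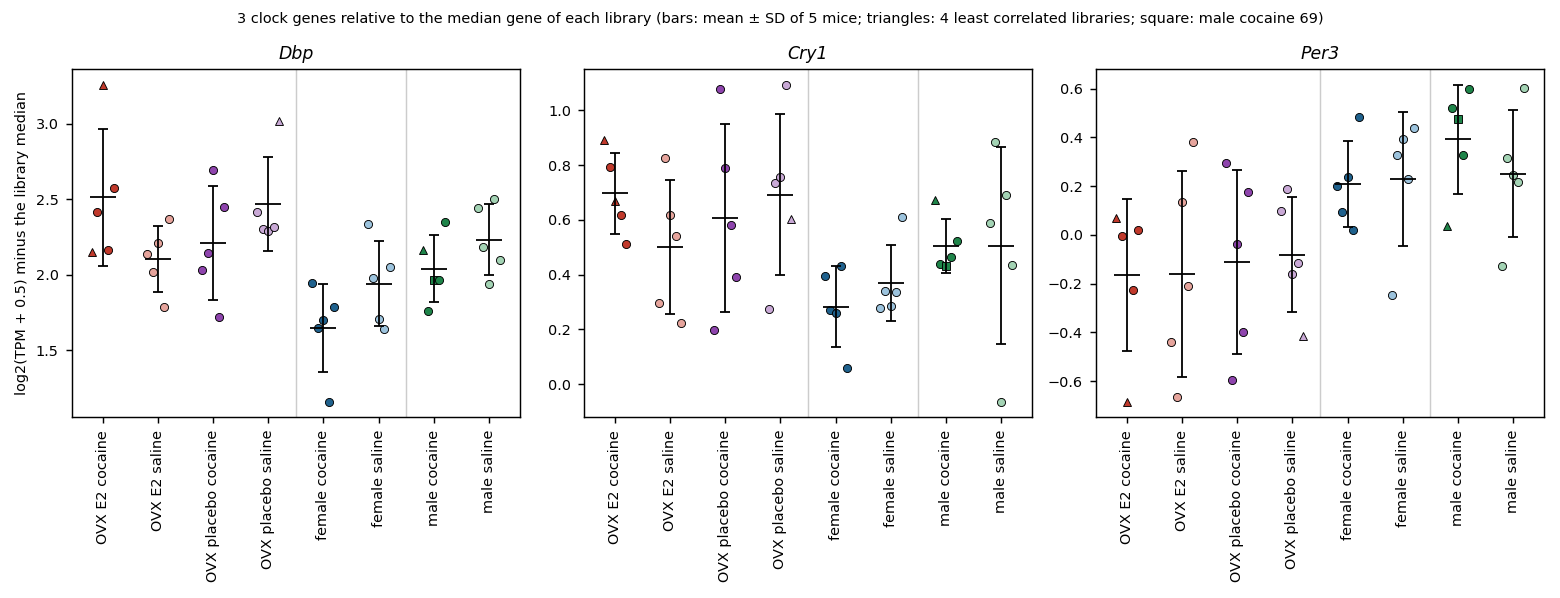
Log2 level of Dbp, Cry1 and Per3 minus the library median, for each mouse in the 8 groups, with group means and SD (n = 5 each); triangles mark the 4 least correlated libraries and squares the library labelled male cocaine 69. For Dbp, 19 of the 20 ovariectomized mice lie above 1.75, the intact female median.

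Ribosomal protein RNA and markers of other cell types moved in the same comparison, and their part in the differences of the clock genes was not tested. Of 81 tested cytosolic ribosomal protein genes, 54 were higher in ovariectomized females as deposited and 77 relative to the median gene, and their summed level was 84066 to 315910 TPM (median 111175) in ovariectomized and 75987 to 138095 TPM (median 78737) in intact females. All 3 endothelial markers were lower as deposited (2 relative to the median gene), with sums of 18.3 to 82.3 TPM in ovariectomized and 42.9 to 93.6 TPM in intact females. Of 4 blood markers 1 was higher as deposited (2 relative to the median gene), with sums of 83.9 to 435 TPM against 56.8 to 167 TPM in intact females. Of 10 striatal neuron markers none was called as deposited and 4 were higher relative to the median gene, with sums of 2412 to 7820 TPM in ovariectomized and 3688 to 6893 TPM in intact females. As deposited, 2 of 3 thalamic and 1 of 7 tested hypothalamic and suprachiasmatic markers were lower, and none of 8 cortical, 5 astrocyte, 5 oligodendrocyte, 5 choroid plexus and ependymal, 8 immediate-early and 6 glucocorticoid response genes was called in either direction. At an unadjusted p under 0.05, limma picked 1 striatal, 2 cortical, 1 astrocyte, 1 oligodendrocyte, 3 immediate-early and 1 glucocorticoid response gene as lower, and 1 choroid plexus or ependymal gene in each direction.

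Several of these calls rested on which libraries and terms were in the fit. As deposited the count of 7 became 2 without female saline 66, 3 without female saline 65 or 77, and 4 without female saline 78, female cocaine 71, 72 or 80, placebo saline 137, or estradiol cocaine 126 or 134. In these fits 20.5% to 29.7% of all genes were called, against 35.7% with all libraries. Relative to the median gene the count of 3 became 5 without female saline 64, with 37.6% of all genes. Without the 4 least correlated libraries 5 members were lower as deposited, with differences of -0.54 for Per3, -0.53 for Per2, -0.43 for Clock, -0.37 for Arntl and -0.30 for Cry2 (limma, adjusted p under 0.05, with 30.8% of all genes called). Relative to the median gene and without these 4 and the library labelled male cocaine 69, the same 3 were called, Dbp at 0.46 ± 0.10 (adjusted p = 0.00584 in limma), Cry1 at 0.29 ± 0.10 (adjusted p = 0.037) and Per3 at -0.30 ± 0.11 (adjusted p = 0.0442), with 24.0% of all genes. With the ribosomal protein share of each library as a covariate, only Dbp was called, at 0.38 (adjusted p = 0.0432 in limma), with 2.63% of all genes.

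Group by group, the difference as deposited was called only between ovariectomized estradiol cocaine and intact female cocaine. There 8 of the 10 members were lower, from -1.48 ± 0.42 for Clock (limma, adjusted p = 0.0145) to -0.85 for Per1 (adjusted p = 0.0471), beside 55.5% of all genes called in either direction, 51.6% of all genes called lower, 63.5% at an unadjusted p under 0.05, and a median of -0.74 over all genes. Arntl, Npas2, Per2, Per3, Cry2 and Nr1d1 were called lower as well. Clock had 4.78, 4.93, 18.4, 19.1 and 27.2 TPM with estradiol and cocaine, against 26.7, 30.4, 36.1, 37.9 and 41.6 TPM in intact females with cocaine, so that only the highest estradiol mouse reached the intact range. This count was 5 without female cocaine 80, with 40.5% of all genes, and by limma it was 0 without mouse 126, without mouse 134, without the 4 least correlated libraries, with the ribosomal covariate, or with only the 2 groups in the fit. At an unadjusted p under 0.05, limma picked 3 members and 2529 genes without the 4 libraries, 1 member and 743 genes with the covariate, and 6 members and 6702 genes with only the 2 groups. Relative to the median gene 2 members were called, Clock lower at -0.67 ± 0.21 (adjusted p = 0.034 in limma) and Dbp higher at 0.86 ± 0.19 (adjusted p = 0.0313 in limma), against 19.8% of all genes. The relative Dbp levels were 2.15, 2.17, 2.42, 2.57 and 3.26 with estradiol and cocaine, against 1.16, 1.65, 1.70, 1.79 and 1.94 in intact females with cocaine. The highest Dbp level, 3.26, was mouse 134. On this scale 38.7% of all genes had an unadjusted p under 0.05 in limma, and how many of them separate the 2 groups was not counted. The relative count was 0 by limma without estradiol cocaine 126 or 134 or female cocaine 71, 79 or 80, each time with 0% of all genes called and 3 or 4 members at an unadjusted p under 0.05. It was 1 without female cocaine 72, with 10.6% of all genes. It was also 0 when several were left out together: without the 4 least correlated libraries and the library labelled male cocaine 69, limma called 0 members and 0% of all genes relative to the median gene, with 1 member and 2297 genes at an unadjusted p under 0.05.

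The other 3 pairs of groups share their intact females with each other or with this comparison. In these limma called 0 members and 0% of all genes, with 4.09% to 19.3% of all genes at an unadjusted p under 0.05. As deposited the members lay between -0.75 for Per3 and 0.09 for Dbp with placebo and saline. With placebo and cocaine they lay between -0.71 for Per2 and 0.26 for Dbp. With estradiol and saline they lay between -0.66 for Per1 and -0.00017 for Dbp. Dbp, relative to the median gene, was 0.56 above intact female cocaine with placebo and cocaine (adjusted p = 0.49 in limma), 0.53 above intact female saline with placebo and saline (adjusted p = 0.172) and 0.16 above it with estradiol and saline (adjusted p = 0.792). With only the 2 groups in the fit, Arntl, Clock and Per2 were called lower in placebo cocaine than in intact female cocaine, with differences of -0.54, -0.68 and -0.71 (limma, adjusted p from 0.0433 to 0.0473), with 10.0% of all genes.

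Of 22 further clock genes (paralogs, nuclear receptors, PAR bZIP factors, kinases and F-box proteins) all 22 were tested. In ovariectomized against intact females 6 were lower as deposited and 0 higher, or 27.3% called lower beside 32.1% of all genes, with a list median of -0.45 beside -0.37 over all genes. These were Nfil3, a repressor at D-boxes, at -0.50, Bhlhe40, a repressor at E-boxes, at -0.57, the F-box protein genes Btrc, which acts on PER, at -0.62 and Fbxl21, which acts on CRY, at -0.57, and the kinases Csnk1d at -0.59 and Gsk3b at -0.67 (limma, adjusted p from 0.0145 to 0.0415). Of the 22, 2 were called lower relative to the median gene, Btrc at -0.19 and Gsk3b at -0.24 (adjusted p = 0.0399 and 0.0404 in limma), which is 9.09% beside 11.7% of all genes, with a list median of -0.02 beside 0.06. For cocaine against saline 0 of the 22 were called by limma in any condition, as for all genes. With estradiol several were lower after cocaine as deposited at an unadjusted limma p under 0.05, beside 41.7% of all genes. They ran from -1.13 for Nr1d2 to -0.73 for Usp2. Relative to the median gene Nfil3 (0.69) and Timeless (0.47) were higher there, and Nr1d2 (-0.52) and 2310044G17Rik (-0.27) lower. In estradiol cocaine against intact female cocaine 16 (72.7%) were called lower as deposited, beside 51.6% of all genes. The relative count was 1 (4.55%), beside 5.69%.

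Members also varied together from mouse to mouse within groups. Deviations from the group mean, relative to the median gene, were correlated over the 40 libraries for all 45 pairs, with a permutation test within groups and Benjamini-Hochberg adjustment over the 45. Of these, 16 (35.6%) passed 0.05, 15 positive and 1 negative. The smallest called correlation was 0.45 in size, and 34.1% of the pairs among all genes of at least 5 TPM were at least as far from 0, so the count of clock pairs was near that of genes in general.

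The closest pairs were Nr1d1 with Per1 (Pearson r = 0.74, permutation p = 3e-05, adjusted 0.00045; Spearman rho = 0.69, adjusted permutation p = 0.00075) and Nr1d1 with Cry2 (r = 0.74, permutation p = 1e-05, the smallest the permutations can give, adjusted 0.00045; rho = 0.74, adjusted permutation p = 0.00075). Without the 2 most distant libraries these were 0.70 and 0.76. The period genes Per2 and Per3 had r = 0.70 (permutation p = 3e-05, adjusted 0.00045; rho = 0.66, adjusted permutation p = 0.00108), and 0.66 without the 2 most distant. All 3 pairs were positive in ovariectomized and in intact mice taken apart: 0.75 in ovariectomized and 0.72 in intact mice for Nr1d1 with Per1, 0.71 in ovariectomized and 0.81 in intact mice for Nr1d1 with Cry2, and 0.68 in ovariectomized and 0.73 in intact mice for Per2 with Per3 (n = 20 each). Of 11600 genes, 0.397% correlated with Per1 at least as highly as Nr1d1 did, and 1.00% with Nr1d1 as highly as Per1 did. For Per2 with Per3 the shares were 0.371% from the side of Per2 and 3.34% from the side of Per3, and for Nr1d1 with Cry2 1.03% from the side of Nr1d1 and 1.81% from the side of Cry2.

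The activator Clock and the output gene Dbp were the only pair called in the negative direction. Their correlation was -0.61 (permutation p = 0.00023, adjusted 0.00148; rho = -0.59, adjusted permutation p = 0.0039) and -0.68 without the 2 most distant libraries. It was -0.55 in ovariectomized mice (n = 20, adjusted permutation p = 0.0701) and -0.72 in intact mice (n = 20, adjusted permutation p = 0.012). As deposited, without setting libraries on a common median, the same pair had r = 0.54 and all 45 pairs were positive with a median of 0.82, so this direction belongs to the relative scale alone. Of 11600 genes, 20.6% correlated with Clock at or below the value for Dbp, and 6.16% with Dbp at or below the value for Clock. Arntl and Cry1 were in none of the 16 called pairs, their own pair having r = 0.44 (adjusted permutation p = 0.0508).

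Some pairs were close in ovariectomized mice and not in intact mice, a difference that was not tested. Npas2 with Per2 had r = 0.77 in ovariectomized and 0.34 in intact mice, Per3 with Cry2 0.78 in ovariectomized and 0.24 in intact mice, and Per1 with Per3 0.75 in ovariectomized and 0.27 in intact mice (n = 20 each, adjusted permutation p from 0.00585 to 0.0136 in ovariectomized and from 0.384 to 0.562 in intact mice). In ovariectomized mice 12 pairs (26.7%) were called and in intact mice 3 (6.67%). The share of all gene pairs at least as far from 0 as the weakest called clock pair was 17.5% in ovariectomized and 11.1% in intact mice. Without the 4 least correlated libraries and the library labelled male cocaine 69, 7 pairs were called in ovariectomized and 5 in intact mice, with 4.89% and 11.5% of all gene pairs at least as far from 0.

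**Figure D5:**
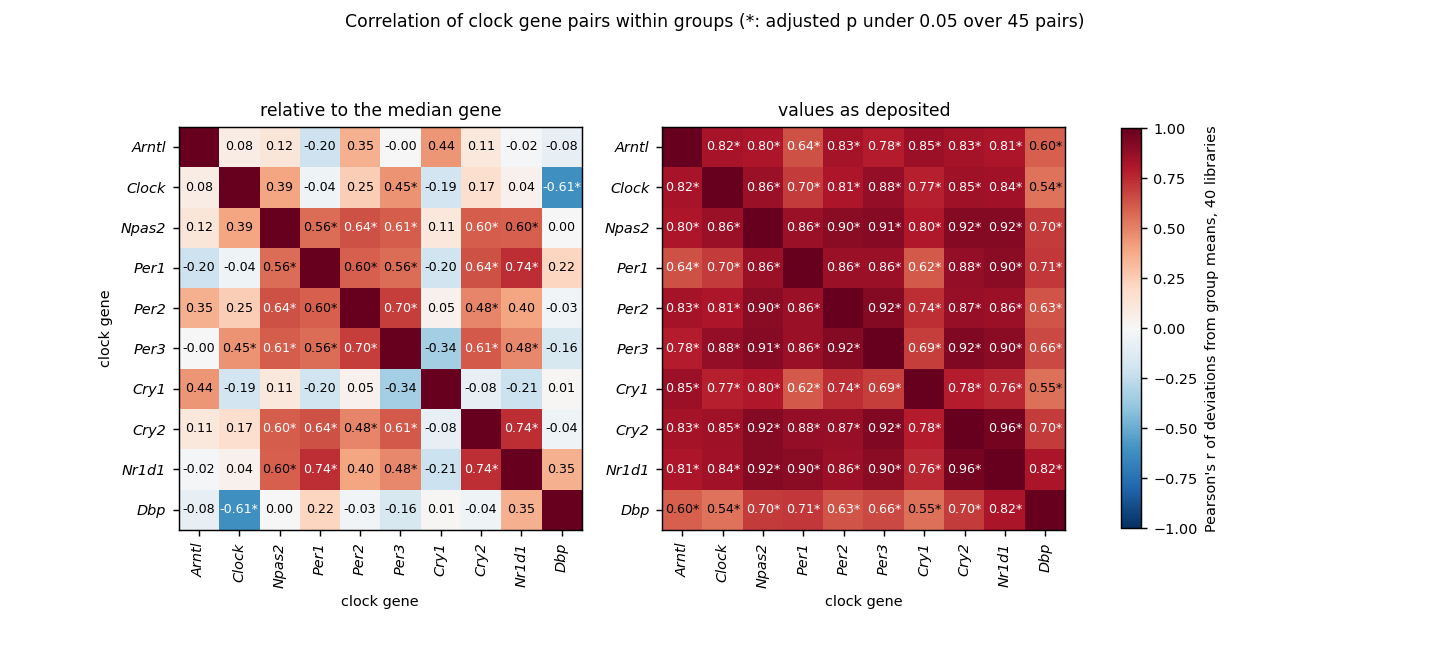
Pearson correlation between each pair of clock genes over deviations from group means in 40 libraries, relative to the median gene on the left and as deposited on the right; asterisks mark an adjusted permutation p under 0.05. On the left 16 of 45 pairs are marked and Clock with Dbp is negative at -0.61; on the right all 45 are positive.

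The genes whose within-group pattern was most like each member's were searched over the 40 libraries and among 11591 other genes. In every case these were closer than any other clock gene. With so many genes searched against so few clock genes, this order was likely beforehand. It cannot show whether clock genes are less alike to each other than to other genes. Clock was followed by Pds5a (r = 0.95) and AI314180 (0.93), Per3 by Dopey2 (0.90) and Mapkbp1 (0.88), Cry2 by Ldoc1l (0.89) and Ppp6r1 (0.88), and Nr1d1 by Mink1 (0.87) and Dusp8 (0.86). Dbp was followed by Psd and Meis3 (both 0.86), Per1 by Celf3 (0.85) and Zc3h3 (0.83), Npas2 by Dapk1 and Syt6 (both 0.84), and Per2 by Prdm15 (0.82) and Shisa7 (0.79). The weakest neighbours were those of Cry1, Lrrtm3 (0.76) and Fam108c (0.68), and of Arntl, Hnrpll and Becn1 (both 0.63). These are descriptions of shared libraries, since all points of a pair come from the same library and its composition. Parts of 4 members lie opposite an exon of another gene on GRCm38. These are Nr1d1 opposite Thra, Dbp opposite Sphk2, Cry2 opposite D930015M05Rik and Arntl opposite Gm45355, over 263, 539, 295 and 33 bases. The libraries came from a targeted amplicon kit, and whether its amplicons lie in these stretches was not checked. Strand handling is not given in the sources used here, so any reads there may come from either gene.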

How the data were processed

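RNA was measured by a targeted amplicon library kit (AmpliSeq, per the labels' protocols), and all libraries shared 1 lane. The submitters' processing notes name the mouse build mm10 and list limma, DESeq2, Cuffdiff 2.2.0, Cufflinks 2.2.0, TopHat2 2.0.9 and Bowtie2 2.1.0.0, without their roles. The values the authors deposited were taken as TPM because every column sums to 1000000, although the sheet is named for FPKM. How they were made is not stated, and the depth of each library is unknown. Of 23349 entries, 27 whose symbols had become dates were left out (0.0934% to 0.272% of the TPM), and 23322 genes remained.

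Genes at 1 TPM or more in at least 5 libraries (15196) were tested as log2(TPM + 0.5), a scale that understates changes of low genes, with limma 3.58.1 (R 4.3.3; trend and robust options) on all 8 groups in 1 fit, and p-values were adjusted over all tested genes by the Benjamini-Hochberg method at 0.05. The relative scale subtracts the library median. Correlations used deviations from group means and 100000 permutations within groups (Python 3.11.15, numpy 2.4.6), over all 40 libraries, since no library was identical to another. In limma, p-values set a difference against the spread between mice, estimated from all 8 groups together unless only some were fitted. Those of correlations come from shuffling libraries within groups. The scripts were tested on simulated data.

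The members and lists were chosen with earlier results of these data known. As deposited and with all libraries in the fit, each comparison gives the members by range or by value. Members called there are named, but not all with a value. Likeness names the 2 genes with the highest correlation per member. Fits relative to the median without 5 libraries, and correlations within surgery groups without them, were added after seeing the data.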

Additional observations from a re-analysis of the deposited data

Results flagged for a closer look

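Each gene was checked in each group, which gave 80 sets of 5 values (10 genes in 8 groups). In 13 sets the gap of 1 mouse to the nearest other mouse passed Dixon's 95% critical value for 5 samples. The gap was divided by the range of the group. Chance gives about 1 in 20 for independent sets. The 10 genes were read from the same libraries, so the count of 13 cannot be set against that rate. In 11 the mouse was the lowest of its group and in 2 the highest. Male cocaine 67 stood lowest for Arntl (7.45 TPM, the other mice from 24.4 to 29.4 TPM), Clock (8.49 TPM), Per3 (8.78 TPM), Cry1 (13.9 TPM) and Cry2 (31.8 TPM). Ovariectomized placebo saline 137 stood lowest for Per3 (6.36 TPM), Cry2 (20.9 TPM, the others from 65.0 to 73.4 TPM) and Nr1d1 (31.5 TPM). Both mice are among the 4 least correlated libraries, in which the median gene is also low. Female saline 64, which is not one of the 4, stood lowest for Arntl (15.8 TPM, the others from 29.7 to 32.6 TPM), Per2 (10.1 TPM) and Per3 (12.5 TPM, the others from 27.0 to 30.5 TPM). Its median gene stood at 3.94 on the log2 scale and its ribosomal protein share at 13.8%, against 4.45 to 4.57 and 7.60% to 8.04% in the other female saline mice. Female cocaine 80 stood highest for Per3 (32.1 TPM) and female cocaine 79 highest for Cry1 (30.0 TPM). None of the 13 concerned Dbp, Npas2 or Per1. Whether the low mice differ in tissue, RNA quality or time of collection was not tested.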

How the results depend on the processing

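No paired analysis was possible because every animal number is used once and no group shares numbers with another. All counts here are from limma unless they concern pairs. For cocaine, sex and estradiol the count of members called stayed at 0 under every alternative to the fit except leaving out 1 library, where estradiol cocaine against estradiol saline gave 0 to 2 and the test of any difference among groups 0 to 5. For ovariectomized against intact females the 7 called became 3 with each library centred on its median, 3 with quantile normalization, 1 with the ribosomal covariate and 2 to 8 without 1 library; over all genes 5424 calls became 399 with the covariate. For ovariectomized estradiol cocaine against female cocaine the 8 became 2 centred, 2 with quantile normalization, 0 with the covariate, 0 without the 4 least correlated libraries, 0 with only those groups fitted, and 0 to 8 without 1 library, while 8434 calls over all genes became 3014, 2891, 0, 0 and 2 in the first 5 of these. For placebo cocaine against female cocaine 0 became 3, and 0 over all genes became 1520, with only those groups fitted. The 16 called pairs became 45 as deposited, 3 in intact mice, 7 in ovariectomized and 5 in intact mice without the 4 and male cocaine 69 (settings chosen after seeing the data), and 15 to 19 without 1 library. Signs turned for Cry1 in ovariectomized against intact females (0.30 centred, 0.27 quantile, 0.17 covariate, 0.050 without the 4), for Nr1d1 there (0.019 centred, 0.022 covariate), for Npas2 (0.0040), Nr1d1 (0.067) and Per1 (0.013) in estradiol cocaine against female cocaine with the covariate, for Dbp in that comparison without 1 library (-0.11 to 0.38), and for Clock with Dbp as deposited (0.54). The cause was not tested. Per-library depth is unknown, so no counting error can be given. Every library sums to the same total, so the shares of genes are not independent. How far the ribosomal protein share accounts for the lower level of other genes was not tested.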
